A study of Mus musculus with 120 samples.

Results

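Ribosome footprints were compared gene by gene between eIF2a S51A mouse embryonic fibroblasts (S51A MEFs) kept for 1 h in 1 µM thapsigargin and untreated S51A MEFs. Genes entered the comparison when the authors' pooled footprint total was above 0 at both times and at least 10 RPKM at 1 of them, and 7120 of the 22417 genes in the table (31.8%) met that rule. RPKM is the read count scaled to coding length and to the size of the library. The change of a pooled total is given as log2((1 h + 1)/(0 h + 1)). Each S51A time comprised 4 samples, 2 of a cytosol fraction (released with digitonin) and 2 of an endoplasmic reticulum (ER) fraction (released afterwards with DDM). All of these cells, untreated ones included, carry eIF2α with alanine in place of serine 51. WT MEFs of the C57BL/6 strain, with 4 samples after 1 h in 1 µM thapsigargin and 4 untreated, served as the genotype for comparison. The series also holds cells labelled ATF4-/-, which were not compared with S51A cells by a test. Their footprint samples entered the estimate of spread used in the tests, and their pooled totals are drawn with the time course. The labels give no strain, clone or zygosity for the S51A cells.

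Thapsigargin blocks the calcium pump of the ER, so that calcium leaves the ER lumen and protein folding there is disturbed. In normal cells the ER kinase PERK then phosphorylates eIF2α on serine 51, which lowers translation initiation on most mRNAs and favours a few with upstream open reading frames (uORFs), such as the mRNA of the transcription factor ATF4. The other ER stress sensors, IRE1 and ATF6, act mainly through transcription. The calcium released into the cytosol has its own targets, among them the phosphatase calcineurin and kinases that switch on immediate early genes, a class of genes induced within minutes whose mRNAs are short-lived.

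The site that defines the genotype lies in Eif2s1, the gene of eIF2α (chr12:78861819-78887010, GRCm38, plus strand). It is shown because every comparison here rests on it. The serine codon, in capitals, is codon 52 counted from the start codon and residue 51 of the protein without its first methionine, and it lies in exon 2 of 8 at chr12:78866680-78866682. These are reference bases from the GENCODE transcripts and not bases read in the S51A cells.
Eif2s1 coding bases: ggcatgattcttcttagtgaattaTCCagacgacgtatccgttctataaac
Footprint levels cannot show the substitution itself. Eif2s1 had 99.2 and 112 RPKM in cytosol of S51A cells at 1 h, against 78.0 and 69.8 RPKM in cytosol of untreated S51A cells. In the ER fraction it had 50.1 and 30.8 RPKM at 1 h, against 33.1 and 48.1 RPKM in untreated S51A cells. These are bulk samples, in which fewer cells of a type and less RNA per cell cannot be told apart. The averaged log2 change of Eif2s1, 0.24 ± 0.20 (SE), did not pass the test (adjusted p = 1).

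Values of single libraries were computed from the authors' pooled numbers, and the 2 libraries of a group are called a and b. S51A libraries held 8933313 to 14432456 reads at 1 h and 6907182 to 8305715 reads untreated. WT libraries held 370449 to 3475215 reads at 1 h and 2056113 to 10870195 reads untreated. In the ER fraction, libraries of different times were more alike than the 2 of 1 time: across 10280 genes Pearson's r was 0.988 between library b of 1 h and library a of 0 h, 0.982 between library a of 1 h and library b of 0 h, 0.971 within 1 h and 0.967 within 0 h. In cytosol r was 0.989 within 1 h, 0.977 within 0 h and 0.975 to 0.987 between the times. Untreated cytosol library b had r of 0.801 to 0.831 with the ER libraries, where the other cytosol libraries had 0.739 to 0.781. Counts that moved by more than 1.5 times when a single library was left out are given with that value. Of 15 fibroblast markers, 10 reached 10 RPKM at both times, with Vim highest at 3565 RPKM at 1 h and 3403 RPKM untreated. The summed level of 6 endothelial markers was 0.506 RPKM at 1 h and 0.227 RPKM untreated, that of 7 blood cell markers 0.959 and 1.34 RPKM, and that of 6 epithelial markers 1.93 and 1.89 RPKM. Of 6 neural markers the sum was 169 RPKM at 1 h and 163 RPKM untreated, nearly all Tubb3 and Nes, and of 6 muscle markers 2106 and 2184 RPKM, all but a trace of it Acta1, an actin with near-identical paralogues. The part of these markers in the results was not tested.

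Most footprint levels in S51A cells were close to their untreated level after 1 h of thapsigargin. The pooled change had a median of -0.026 and a range of -3.20 to 3.62 over the 7120 genes, and 98.5% of them lay within 2-fold. Past 2-fold were 105 genes (1.47%), 39 of them higher at 1 h (0.548%) and 66 lower (0.927%). By the same rule 821 of 7616 WT genes (10.8%) were past 2-fold, 500 higher (6.57%) and 321 lower (4.21%). Among the 6581 genes that met the rule in both genotypes, 76 were past 2-fold in S51A and 571 in WT. These pooled totals have no replicates, and WT libraries of 1 h were shallower. The shallowest held 370449 reads in WT and 8933313 in S51A, and the part of depth in these counts was not tested. Next to the limit of the rule, Cryl1 (8.07 RPKM at 1 h, 10.002 RPKM untreated) was inside it and Timm21 (9.71 RPKM at 1 h, 9.999 RPKM untreated) was outside. No gene with a total of 10 or more at 1 time was listed at 0 at the other.

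**Figure D1:**
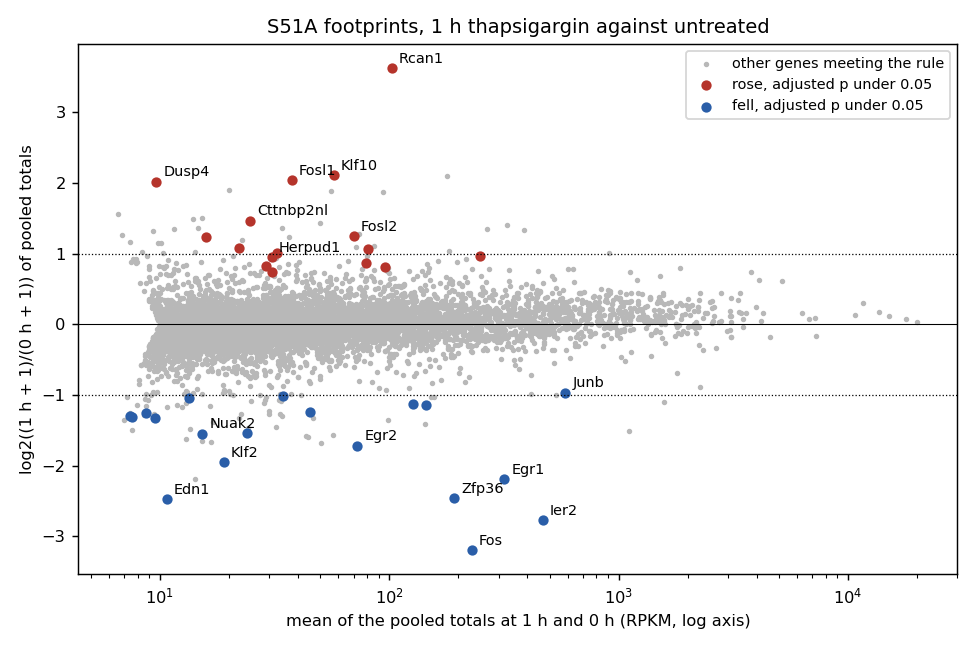
Each point is a gene that met the rule, with the mean of its pooled S51A totals at 1 h and 0 h on the x axis (RPKM, log axis) and log2((1 h + 1)/(0 h + 1)) on the y axis. Genes with an adjusted p under 0.05 in the test on single libraries are red where they rose and blue where they fell, and dotted lines mark 2-fold. Nearly all points lie between the dotted lines, with Rcan1 highest at 3.62 and Fos lowest at -3.20.

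With single libraries, 40 of 10280 genes tested changed between 1 h and 0 h in S51A cells (0.389%; limma, Benjamini-Hochberg adjusted p under 0.05, change averaged over both fractions). Of these, 21 rose (0.204%) and 19 fell (0.185%), and the median change over all genes tested was -0.07. A test was possible for 6458 of the 7120 genes of the comparison, and 35 of the 40 are among them. The other 5, among them Serpinb2, Nr4a3, Chac1 and Eva1a, all rose but stayed under 10 RPKM in the pooled totals. In 39 of the 40 genes both libraries of 1 h lay beyond both untreated libraries in each fraction, Eva1a being the exception. That was so for 831 of all 10280 genes (8.08%), 199 of them higher at 1 h (1.94%) and 632 lower (6.15%). The 40 were chosen by a test on these same library values, so their separation is a description and no further support. Of the 105 genes past 2-fold in the pooled totals, 93 could be tested and 28 were called. The number of calls was 20 without untreated cytosol library a, 20 without 1 h ER library a and 21 without 1 h cytosol library a.

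The 19 falls were led by immediate early genes that were high in untreated S51A cells. Fos, a subunit of the AP-1 transcription factor (chr12:85473890-85477273, plus strand, GRCm38), had 43.2 and 19.3 RPKM in cytosol at 1 h, against 342 and 198 RPKM in untreated cytosol. In the ER fraction Fos had 18.2 and 7.68 RPKM at 1 h, against 108 and 178 RPKM untreated. It fell by 3.28 ± 0.29 on the log2 scale (SE, adjusted p = 1.31e-09), and all 4 libraries of 1 h were below all 4 untreated ones. Ier2, an immediate early gene of chromosome 8 coding for a nuclear protein, had 100 and 73.9 RPKM in cytosol at 1 h, against 648 and 502 RPKM untreated. Its ER levels were 36.1 and 27.5 RPKM at 1 h, against 222 and 262 RPKM untreated, so the times did not overlap in either fraction. Its log2 change was -2.81 ± 0.26 (SE, adjusted p = 2.02e-09).

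Zfp36 codes for tristetraprolin, which binds AU-rich elements in mRNAs of cytokines and immediate early genes and speeds their decay. It had 43.5 and 37.1 RPKM in cytosol at 1 h, against 217 and 194 RPKM untreated, and 18.1 and 17.5 RPKM in ER at 1 h, against 105 and 134 RPKM untreated. The log2 change was -2.50 ± 0.22 (adjusted p = 1.31e-09). Egr1, a zinc finger transcription factor induced by mitogens, had 77.0 and 87.2 RPKM in cytosol at 1 h, against 347 and 318 RPKM untreated, and its log2 change was -2.30 (adjusted p = 1.80e-09). Egr2, its paralogue, had 22.7 and 23.1 RPKM in cytosol at 1 h, against 74.9 and 59.2 RPKM untreated (log2 change -1.73, adjusted p = 2.01e-06). For these genes, too, the levels of 1 h lay below those of untreated cells in both fractions.

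Promoter sequences of Zfp36 and Egr2 are shown because both genes fell and both hold a CArG box, the element bound by serum response factor, which drives many immediate early genes. The windows run from 250 bases before to 50 bases after the start of transcription (RefSeq, GRCm38.p6), and capitals mark the CArG box, at -58 to -49 in Zfp36 (chr7:28379179-28379478, minus strand) and at -72 to -63 in Egr2 (chr10:67537619-67537918, plus strand).
Zfp36: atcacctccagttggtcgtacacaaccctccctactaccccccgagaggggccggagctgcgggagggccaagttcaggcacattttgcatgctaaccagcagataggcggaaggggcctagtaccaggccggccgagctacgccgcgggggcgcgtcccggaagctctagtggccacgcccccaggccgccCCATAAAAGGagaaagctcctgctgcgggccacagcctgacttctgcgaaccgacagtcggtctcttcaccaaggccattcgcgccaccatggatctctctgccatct
Egr2: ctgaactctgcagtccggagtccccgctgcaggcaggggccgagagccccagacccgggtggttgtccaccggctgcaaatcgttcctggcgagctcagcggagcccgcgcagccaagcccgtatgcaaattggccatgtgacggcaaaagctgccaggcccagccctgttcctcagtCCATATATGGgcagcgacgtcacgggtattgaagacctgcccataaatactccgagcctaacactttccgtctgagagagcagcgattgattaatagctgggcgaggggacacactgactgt
Windows existed for 14 of the 19 genes that fell, 18 windows in all, and 3 genes (Egr2, Rnd3 and Zfp36) had a CArG box on either strand. The box occurred in 1.63% of 32851 mouse promoter windows, a share of windows and not of genes, some of which have several. Another motif searched, the E-box CACGTG, was found in 4 genes that fell (Bmp4, Dusp1, Egr2 and Irs1). It occurred in 7.15% of all windows. A match shows that the letters are present and not that the element is bound.

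The other falls included regulators of signalling. Nuak2, a kinase related to AMP-activated protein kinase, had 3.11 and 5.95 RPKM in cytosol at 1 h, against 13.4 and 12.6 RPKM untreated (log2 change -1.52, adjusted p = 1.51e-05). Dusp1, a phosphatase that inactivates MAP kinases, had 79.6 and 38.3 RPKM in cytosol at 1 h, against 139 and 104 RPKM untreated (log2 change -1.23, adjusted p = 0.0304). Socs3 and Cish, inhibitors of cytokine receptor signalling through JAK kinases, changed by -1.42 and -1.20, and Irs1, the adaptor of insulin and IGF1 receptors, by -1.17. Klf2, a Krüppel-like factor, had 4.15 and 5.87 RPKM in cytosol at 1 h, against 22.6 and 15.1 RPKM untreated (log2 change -1.87, adjusted p = 0.0164). Snai2, a transcriptional repressor of mesenchymal cells, changed by -1.23, and Rnd3, a small GTP-binding protein without GTPase activity, by -1.12. The secreted peptides endothelin 1 (Edn1, -1.72) and Bmp4 (-0.98) fell as well. With 2610008E11Rik (-1.12), and with Junb (-1.04) and Zfp503 (-0.96), named after their values were seen, these are the falls reported here.

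Rcan1 rose most. It codes for regulator of calcineurin 1, an inhibitor of calcineurin whose gene is itself switched on by calcineurin and NFAT. Rcan1 had 143 and 108 RPKM in cytosol at 1 h, against 11.98 and 8.61 RPKM untreated, and 94.6 and 35.4 RPKM in ER at 1 h, against 3.10 and 5.36 RPKM untreated. The log2 change was 3.51 ± 0.34 (adjusted p = 6.94e-09), and the lowest level of 1 h was above the highest untreated one in each fraction. It was the single member of the calcineurin and NFAT list to change, 1 of 12 tested, where 0.389% of all genes tested changed. Of the others, Ppp3ca, a catalytic subunit of calcineurin, had a log2 change of 0.37 (adjusted p = 1), and the paralogue Rcan2 had -0.38 (adjusted p = 1).

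Klf10, a Krüppel-like factor induced early by transforming growth factor β, had the smallest p. It had 65.1 and 58.5 RPKM in cytosol at 1 h, against 13.01 and 11.1 RPKM untreated, and 36.0 and 27.5 RPKM in ER at 1 h, against 6.99 and 10.8 RPKM untreated (log2 change 2.00 ± 0.16, adjusted p = 3.16e-10). Fosl1, which codes for the AP-1 subunit FRA1, had 49.5 and 45.1 RPKM in cytosol at 1 h, against 6.75 and 12.1 RPKM untreated (log2 change 1.81, adjusted p = 1.51e-05). Fosl2, which codes for FRA2, rose by 1.17 (adjusted p = 0.0186). Within AP-1, Fosl1 and Fosl2 rose and Fos and Junb fell, 2 higher and 2 lower of 12 tested, where 0.204% and 0.185% of all genes tested were. The list median was 0.46 against -0.07 over all genes, and it was 0.28 without 1 h cytosol library a and 0.29 without 1 h ER library a. Jun, named after its value was seen, had a log2 change of -0.98 that did not pass (adjusted p = 0.238).

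The other immediate early genes split in the same way. Of 20 tested, 3 rose and 3 fell. Over all genes tested 0.204% rose and 0.185% fell, the shares to set beside each list of this paragraph. Those that rose were Nr4a3, an orphan nuclear receptor (1.12), Csrnp1, a nuclear protein induced by AXIN1 (1.1), and Sgk1, a serum and glucocorticoid induced kinase (1.00), while Egr1, Egr2 and Ier2 fell. Among Krüppel-like factors, Klf10 rose and Klf2 fell, and the remaining 9 of 11 did not pass. Klf4 had 9.94 and 4.04 RPKM in cytosol at 1 h, against 2.08 and 1.90 RPKM untreated (log2 change 1.20, adjusted p = 0.241). In the MAP kinase feedback list Dusp4 rose by 1.72 (adjusted p = 0.000296) and Dusp1 fell, of 16 tested. Spry2, an inhibitor of receptor tyrosine kinase signalling, had a log2 change of 1.05 (adjusted p = 0.0712). Zfp36 was the only 1 of 9 genes of the Zfp36 and Btg families to pass, and Btg2 had 254 and 218 RPKM in cytosol at 1 h, against 534 and 370 RPKM untreated (log2 change -1.01, adjusted p = 0.191).

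**Figure D2:**
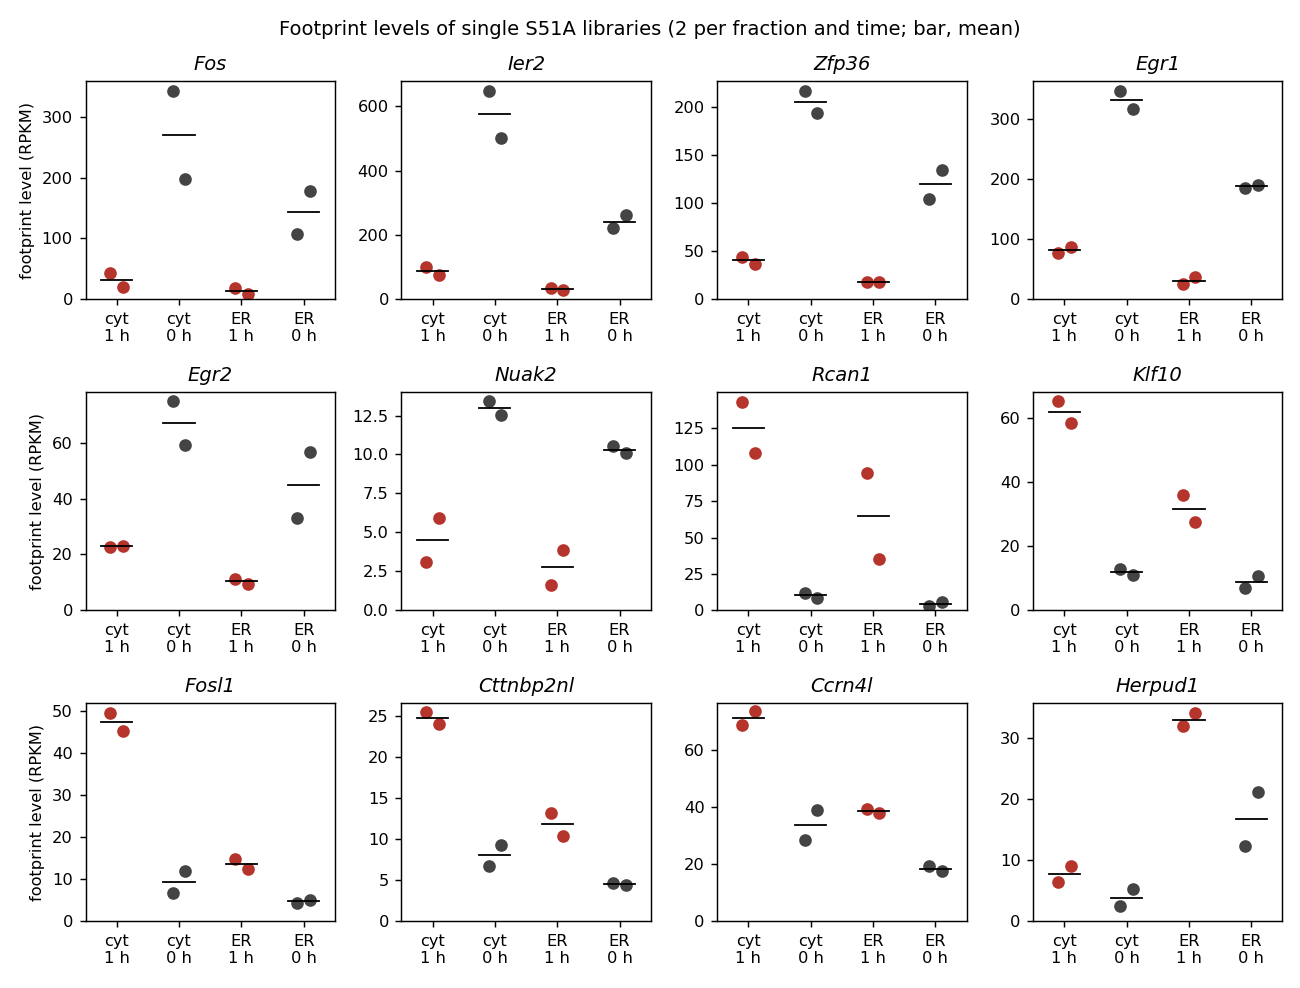
Footprint level (RPKM) of 12 genes in each single S51A library, by fraction (cyt, cytosol) and time; red points are 1 h of thapsigargin, grey points are untreated, and the bar is the mean of the 2 libraries. The upper row and the first 2 panels of the middle row fell, Rcan1, Klf10 and the bottom row rose, and in every panel the points of 1 h and 0 h do not overlap within a fraction. All 12 genes were called by the test on these same values.

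Other genes that rose were of mixed function. Cttnbp2nl, an actin and phosphatase associated protein, had 25.5 and 24.01 RPKM in cytosol at 1 h, against 6.78 and 9.31 RPKM untreated (log2 change 1.36, adjusted p = 0.000196). Ccrn4l (nocturnin) rose by 1.055, Serpinb2, an inhibitor of plasminogen activators, by 1.07, and Rnd1, a paralogue of Rnd3, by 0.89. Mob3a (0.81), Hmgn5 (0.79), Skil (0.75), Eva1a (0.74) and Stk38l (0.71) also rose and were named after their values were seen. Hspa1a, a cytosolic heat shock protein, lay just inside the threshold (0.76, adjusted p = 0.0498). Its near-identical copy Hspa1b lay just outside (0.75, adjusted p = 0.0532), and reads of these 2 genes cannot be assigned with certainty.

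Among genes tied to the ER, Herpud1 and Chac1 passed the test. Herpud1 codes for a membrane protein of the complex that exports misfolded proteins from the ER for degradation, and it had 31.9 and 34.01 RPKM in the ER fraction at 1 h, against 12.4 and 21.2 RPKM untreated. In cytosol it had 6.48 and 9.11 RPKM at 1 h, against 2.46 and 5.27 RPKM untreated. The log2 change was 0.94 ± 0.21 (adjusted p = 0.0286), but with the fractions weighted by the gene's share in each, a setting added after the data were seen, the adjusted p was 0.0793. Herpud1 was 1 of 22 tested genes of ER-associated degradation to change, where 0.389% of all genes tested did, and the list's median was -0.03. Chac1, a γ-glutamyl cyclotransferase that degrades glutathione and a known target of ATF4, had 9.21 and 3.69 RPKM in cytosol at 1 h, against 1.38 and 2.24 RPKM untreated (log2 change 1.25, adjusted p = 0.000687). It was 1 of 20 tested ATF4 and CHOP effectors to change, where 0.389% of all genes tested did. Trib3, a pseudokinase of the same list named after its values were seen, was at 0.599 RPKM pooled at 1 h and 0.917 RPKM untreated and did not meet the rule.

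Promoters of Rcan1 and Herpud1 are shown because they rose and hold elements tied to calcium or ER stress. In Rcan1 (chr16:92400029-92400328, minus strand) capitals mark a cAMP response element, TGACGTCA, at -175 to -168, and an AP-1 site, TGACTCA, at -110 to -104. In Herpud1 (chr8:94386179-94386478, plus strand) they mark the ER stress element ERSE-II, ATTGG and CCACG 1 base apart, at -52 to -42, and a CArG box at 36 to 45.
Rcan1: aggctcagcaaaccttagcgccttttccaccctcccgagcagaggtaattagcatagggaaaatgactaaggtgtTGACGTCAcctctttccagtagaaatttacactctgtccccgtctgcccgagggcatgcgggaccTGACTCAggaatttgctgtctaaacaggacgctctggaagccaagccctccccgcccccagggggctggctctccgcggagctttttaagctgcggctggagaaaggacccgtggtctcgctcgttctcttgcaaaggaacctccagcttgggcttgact
Herpud1: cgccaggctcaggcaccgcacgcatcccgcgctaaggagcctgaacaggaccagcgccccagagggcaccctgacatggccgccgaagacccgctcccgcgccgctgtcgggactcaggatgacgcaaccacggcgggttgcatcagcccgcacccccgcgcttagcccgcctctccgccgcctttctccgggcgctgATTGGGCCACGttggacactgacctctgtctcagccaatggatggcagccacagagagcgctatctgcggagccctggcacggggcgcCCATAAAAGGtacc
Both are RefSeq windows of GRCm38.p6, and each motif was searched on both strands. Over all 32851 windows the cAMP response element occurred in 1.79%, the AP-1 site in 5.2% and ERSE-II in 0.0365%. Of the 21 genes that rose, 14 had windows, 25 in all, with the cAMP response element in Rcan1 and Stk38l, the AP-1 site in Csrnp1 and Rcan1, and ERSE-II in Herpud1. The cAMP response element was also found in Dusp1, which fell. Of the other motifs searched, the E-box was found in Eva1a, Rcan1 and Sgk1, which rose. The related ER stress element ERSE was found in no gene that rose or fell.

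The uORF mRNAs that resist eIF2α phosphorylation did not pass the test in S51A cells. Atf4 had 33.9 and 39.9 RPKM in cytosol at 1 h, against 22.7 and 34.8 RPKM untreated, and 10.2 and 18.97 RPKM in ER at 1 h, against 23.2 and 8.49 RPKM untreated. These values overlap in both fractions, and the log2 change was 0.18 (adjusted p = 1). Ddit3, which codes for the pro-apoptotic factor CHOP, had 3.24 and 4.57 RPKM in cytosol at 1 h, against 1.82 and 1.61 RPKM untreated (log2 change 0.64, adjusted p = 1). Ppp1r15a, which codes for GADD34, the subunit that directs phosphatase to eIF2α, had 1.90 and 1.12 RPKM in cytosol at 1 h, against 0.593 and 1.40 RPKM untreated (log2 change 0.14, adjusted p = 1). Of 17 tested genes of the list none changed (limma, adjusted p under 0.05), with a median of 0.03. Ifrd1 came nearest, with 0.84 (adjusted p = 0.0532), and passed with weighted fractions (adjusted p = 0.0460). Amino acid synthesis and transport genes (0 of 23, median -0.12) and cytosolic tRNA synthetases (0 of 18, median -0.11), both ATF4 target classes, had no member past the threshold. Over all genes tested 0.389% passed. At that share lists of these sizes, the uORF list included, would most likely hold no call.

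ER chaperones and folding enzymes, targets of ATF6 and of the spliced form of XBP1, had no member past the threshold at 1 h, 0 of 31 tested with a median of -0.19. With 0.389% of all genes tested past it, a list of this size would most likely hold none. Hspa5, which codes for the chaperone BiP and was named after its values were seen, had 1040 and 915 RPKM in ER at 1 h, against 702 and 728 RPKM untreated. In cytosol it had 26.9 and 33.2 RPKM at 1 h, against 16.1 and 62.7 RPKM untreated, and the log2 change was 0.17 (adjusted p = 1) with a sign that depended on the fraction, -0.0960 in cytosol. The largest changes in the list were those of Uggt1 (-0.93), Sdf2l1 (0.91), Ganab (-0.91) and Prkcsh (-0.61), all with an adjusted p of 0.603 or more. Xbp1, the transcription factor spliced by IRE1, also named after its values were seen and without single-library values, was at 109 RPKM pooled at 1 h and 78.2 RPKM untreated. Reported substrates of IRE1's decay activity (RIDD) had a median of -0.49 with 0 of 7 past the threshold. Pmp22 had 73.4 and 153 RPKM in ER at 1 h, against 164 and 172 RPKM untreated (log2 change -0.80, adjusted p = 1).

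Extracellular matrix and plasma membrane genes, which are translated on the ER, had negative list medians at 1 h, though no gene passed alone. Weighting the fractions by each gene's share suits these genes, because little of their level is in cytosol. By that measure the matrix list had a median log2 change of -0.59, with 3 of 36 tested above 0, against a median of -0.04 over all genes, and 0 of 36 passed. The plasma membrane list had -0.41, with 6 of 34 above 0 and 0 passing, and its median was -0.21 with weighted fractions and trimmed-mean scaling together. By the weighted measure 0.409% of all genes tested passed, and 4305 of 10269 were above 0. Lamb1, a laminin chain, had 23.5 and 8.08 RPKM in ER at 1 h, against 45.2 and 46.0 RPKM untreated (weighted change -1.59, adjusted p = 0.516). Nid1, the basement membrane protein nidogen, had 20.2 and 12.5 RPKM in ER at 1 h, against 40.9 and 39.9 RPKM untreated (weighted change -1.27, adjusted p = 0.893). Both libraries of 1 h were below both untreated ones for these genes. Summed over the 36 matrix genes the ER level was 6229 and 4781 RPKM at 1 h, against 6273 and 7630 RPKM untreated, so the higher library of 1 h lay just under the lower untreated one. In cytosol their sum was 229 and 211 RPKM at 1 h, against 231 and 508 RPKM untreated. The plasma membrane sum there was 125 and 132 RPKM at 1 h, against 135 and 314 RPKM untreated. The fall of both sums in cytosol thus rests mainly on untreated library b. In the pooled totals 9 of the 38 matrix genes that met the rule were past 2-fold lower and none higher, where 0.927% of all genes of the comparison were past 2-fold lower. Thbs1 (thrombospondin 1), named after its values were seen and without a test, was at 575 RPKM at 1 h and 1640 RPKM untreated.

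The pooled change also differed with the authors' flag for ER-targeted genes, TRUE or FALSE in their table. Of the 1429 genes of the comparison flagged TRUE the median pooled change was -0.212, 22.3% were above 0, and 6 were past 2-fold higher against 42 lower. Of the 5691 flagged FALSE the median was 0.0065, 51.7% were above 0, with 33 higher and 24 lower. Across all genes tested the ER fraction had a median change of -0.191 and the cytosol fraction of 0.042. With another scaling (trimmed means within each fraction) these medians were -0.013 and -0.048, so low shifts of whole groups are to be read against a level that moves with scaling. Over 19 settings that combine both fractions the matrix median lay between -0.766, without 1 h ER library a, and -0.251, without 1 h ER library b. The plasma membrane median lay between -0.633, without untreated cytosol library a, and -0.21, and was -0.212 without untreated cytosol library b. No gene passed the test for a move between fractions, 0 of 10280 (limma), with 125 at an unadjusted p under 0.05. In single fractions, 14 genes passed in cytosol (0.135%), 8 higher (0.0773%) and 6 lower (0.0580%), and 11 in ER (0.106%), 3 higher (0.0289%) and 8 lower (0.0770%).

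**Figure D3:**
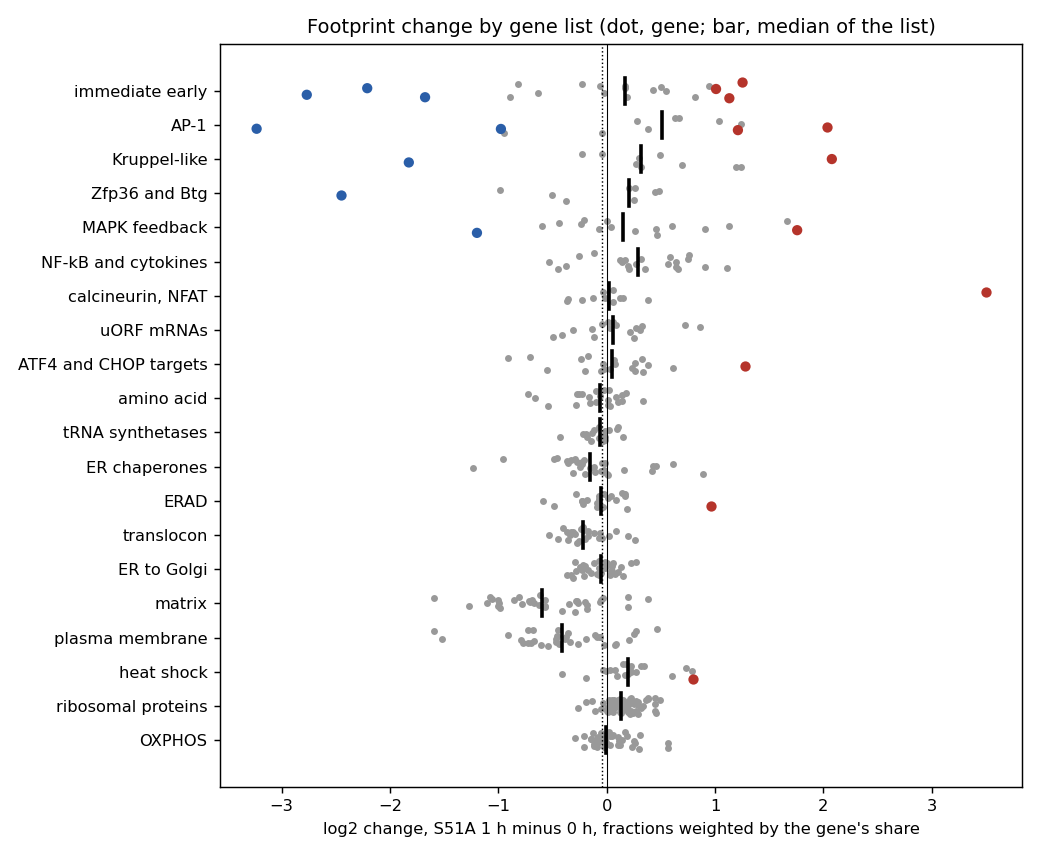
Log2 change of S51A footprints, 1 h minus 0 h, with fractions weighted by the gene's share, for the tested genes of 20 lists; each dot is a gene, red where it rose and blue where it fell at an adjusted p under 0.05 in the test that averages the fractions. Black bars are list medians, and the dotted line is the median over all genes (-0.04). Calls lie in the immediate early, AP-1, Krüppel-like, decay, MAP kinase and calcineurin lists and as single genes elsewhere, and the matrix median (-0.59) is the lowest drawn.

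Genes of the NF-κB pathway and its cytokines (22 tested, median 0.20) and cytoskeletal targets of serum response factor (15 tested, median 0.24) had no member past the threshold. Rel, an NF-κB subunit, had 8.79 and 12.4 RPKM in cytosol at 1 h, against 5.75 and 4.79 RPKM untreated (log2 change 0.72, adjusted p = 0.0682). Tagln (transgelin) had 3275 and 3604 RPKM in cytosol at 1 h, against 1670 and 1863 RPKM untreated (log2 change 0.65, adjusted p = 0.115). Cytosolic heat shock proteins had 1 of 21 past the threshold, Hspa1a, and a median of 0.13. Over all genes tested 0.389% passed, the share to set beside each list of this paragraph. Hspb1, a small heat shock protein, had 737 and 398 RPKM in cytosol at 1 h, against 266 and 353 RPKM untreated (log2 change 0.66, adjusted p = 1).

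Some large pooled changes rested on 1 library. Abi3bp, a matrix protein with a pooled change among the 6 lowest, had 5.76 and 2.75 RPKM in ER at 1 h, against 3.94 and 42.9 RPKM untreated, so a single untreated library sets its value. Mt2 (metallothionein 2) had 380 and 80.6 RPKM in cytosol at 1 h, against 54.2 and 39.2 RPKM untreated, and did not pass (adjusted p = 0.207). Gm11449, at 32.04 RPKM pooled at 1 h and 7.85 RPKM untreated, had no single-library values. For Edn1 both ER libraries of 1 h, at 1.40 and 3.22 RPKM, were below both untreated ones, at 20.8 and 14 RPKM. Its log2 change still ranged from -2.70 to -0.94 over the alternative settings.

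The test of the difference between genotypes asks which changes at 1 h were larger or smaller in S51A cells than in WT cells. The genotypes are also separate cells with libraries of unequal depth. The eIF2α allele, the cells and the libraries therefore cannot be told apart in this test. In WT cells 2973 of 10278 genes passed (28.9%), 1271 higher and 1702 lower. The change in S51A minus the change in WT passed for 1110 of 10103 genes (11%), 490 higher in S51A (4.85%) and 620 lower (6.14%). With weighted fractions it passed for 852 of 9993 (8.53%), 459 higher (4.59%) and 393 lower (3.93%), and 2769 of 10173 genes (27.2%) passed in WT. With equal weights the 1110 became 721 without untreated S51A cytosol library b, 718 without untreated WT ER library b, and 1665 and 1542 without the 1 h WT libraries a of cytosol and ER.

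Changes of several uORF genes were lower in S51A than in WT by this measure. Atf4 had a log2 change of 0.18 in S51A and 3.21 in WT, a difference of -3.03 ± 0.42 (SE, adjusted p = 1.05e-05). Its WT levels at 1 h were 831 and 840 RPKM in cytosol and 426 and 350 RPKM in ER, against 100.5 and 73.8 RPKM and 31.7 and 57.3 RPKM untreated. The difference was -3.88 for Ddit3 (adjusted p = 4.48e-07) and -3.84 for Ppp1r15a (adjusted p = 5.45e-12). In the uORF list 9 of 17 rose in WT, where 12.4% of all genes tested did. The difference passed for 8 of 17, all lower in S51A, where 6.14% of all genes tested were. Among ATF4 and CHOP effectors 1 of 20 differed, and among amino acid genes 2 of 23, shares below the 11% of all genes tested. Slc3a2, the heavy chain of amino acid transporters, was 1 of the 2, with -0.37 in S51A and 2.08 in WT (difference -2.44, adjusted p = 0.000365).

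Fos, Ier2, Zfp36 and Junb fell in S51A cells and rose in WT cells. Fos had a log2 change of -3.28 in S51A and 1.62 in WT, a difference of -4.90 ± 0.41 (adjusted p = 1.64e-10), the largest among the 1110. For Ier2 the difference was -4.54, for Zfp36 -4.53 and for Junb -3.02. Egr1 (-2.30 in S51A, 0.31 in WT) differed by -2.61. Starting levels were unequal: the pooled total of Fos was 413 RPKM in untreated S51A cells and 1.43 RPKM in untreated WT cells, and at 1 h 44.2 RPKM in S51A and 7.82 RPKM in WT. The pooled totals of Ier2 at 1 h were 119 RPKM in S51A and 112 RPKM in WT, those of Zfp36 58.1 and 42.8 RPKM, and those of Egr1 113 and 45.1 RPKM. Of the 19 genes that fell, 16 had a higher untreated total in S51A than in WT, 14 of them more than 2-fold. Over all 7120 genes 47.6% had a higher untreated total in S51A and 9.10% were past 2-fold. The untreated S51A value also entered the choice of the 19, so this is a description.

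**Figure D4:**
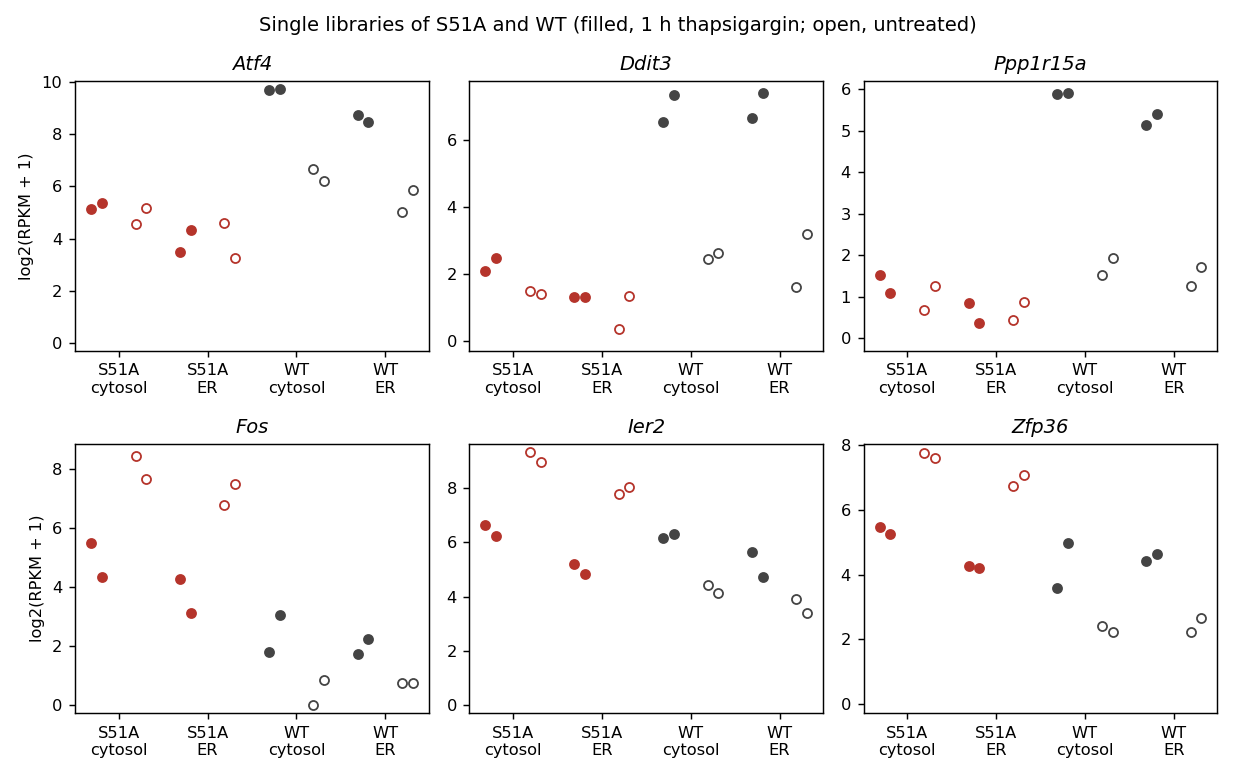
Level of 6 genes in single libraries, log2(RPKM + 1), for S51A (red) and WT (grey) cells by fraction; filled points are 1 h of thapsigargin and open points untreated. Atf4, Ddit3 and Ppp1r15a are higher at 1 h than untreated in WT and overlap or lie close in S51A, and Fos, Ier2 and Zfp36 start high in S51A and are lower at 1 h, while they start low in WT and are higher at 1 h.

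Several genes that rose did so in both genotypes. Klf10 changed by 2.00 in S51A and 2.26 in WT, with a difference of -0.26 ± 0.23 (adjusted p = 0.509). Fosl1 (1.81 in S51A, 1.6 in WT) and Fosl2 (1.17 in S51A, 1.15 in WT) differed by 0.24 ± 0.35 and 0.03 ± 0.36, and Ccrn4l by 0.10 ± 0.23. None of these differences passed, which does not show that the changes were equal. Rcan1 rose in both, by 3.51 in S51A and 4.83 in WT; the difference of -1.32 ± 0.48 did not pass (adjusted p = 0.0686) but did with weighted fractions (-1.70, adjusted p = 0.0415). Herpud1 rose less in S51A (0.94) than in WT (2.49), with a difference of -1.55 (adjusted p = 0.000861). Dusp4 rose in S51A by 1.72 and had -0.05 in WT, a difference of 1.77 (adjusted p = 0.00290).

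Positive differences need the depth of the WT libraries beside them. The 6 largest, Dclk1 (3.70), Eif4ebp2 (3.38), 4933415F23Rik (3.14), 1500009L16Rik (2.88), Homer1 (2.67) and Iigp1 (2.62), came from falls in WT with S51A changes between -0.055 and 0.98. Dclk1 had 6.84 RPKM in WT cytosol library a at 1 h and was at 0 in the other 3 WT libraries of 1 h. These are recovered values, and the recovery took under 4 reads in a WT library as 0. At least 1 WT library of 1 h was at 0 for 149 of the 490 genes called higher in S51A (30.4%), for 10 of the 620 called lower (1.61%) and for 35.6% of all genes tested. Without the 3 WT libraries under 500000 reads, Dclk1 differed by 2.96 and 1500009L16Rik by 2.10. These 3 are library b of cytosol at 0.5 h and library b of each fraction at 1 h. That check leaves 1 WT library of 1 h per fraction, and ER library a, at 0 for both genes, stays in. With weighted fractions only 1500009L16Rik of the 6 did not pass (2.92, adjusted p = 0.0706). The part of the minimum of 4 reads in the differences was not tested further. Odc1, the rate-limiting enzyme of polyamine synthesis and at 0 in none of those libraries, had 0.51 in S51A and -1.77 in WT, a difference of 2.28 (adjusted p = 0.000304).

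The secretory lists depend on how fractions are weighted in WT. With equal weights ER chaperones had a median change of -0.19 in S51A and 0.56 in WT, and 5 of 30 differed, all lower in S51A, where 6.14% of all genes tested were. The S51A median was -0.37 without untreated cytosol library a, -0.024 without untreated cytosol library b and 0.011 with weighted fractions and trimmed-mean scaling together. With weighted fractions the medians were -0.16 in S51A and -0.43 in WT, and 0 of 30 differed. For matrix genes the weighted medians were -0.59 in S51A and -0.77 in WT, with 0 of 35 passing the test of the difference.

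Over the whole course of 0, 0.5, 1, 2 and 4 h, the pooled S51A totals of the genes that fell were near the untreated level at 0.5 h and lower from 1 h on. Fos had 413, 448, 44.2, 6.25 and 2.86 RPKM at these times, and Zfp36 had 325, 311, 58.1, 14.7 and 6.55 RPKM. Of the 19 genes, 1 was past 2-fold lower at 0.5 h (Edn1, 7.81 RPKM against 18.9 RPKM untreated), 18 at 1 h, 18 at 2 h and 15 at 4 h. Rising genes were also close to the untreated level at 0.5 h, with 1 of 21 past 2-fold higher, Rcan1. Rcan1 had 14.5, 36.4, 190, 184 and 68.2 RPKM in S51A, and 28.5, 331, 936, 1735 and 380 RPKM in WT. Klf10 peaked at 1 h in S51A, with 20.97, 17.8, 93.5, 38.9 and 18.9 RPKM. At 4 h, 12 of the 21 were above the untreated total and 4 were past 2-fold higher. BiP came later: Hspa5 had 754, 657, 1005, 2442 and 3694 RPKM. These times share the untreated libraries and are pooled values without replicates, so they are given as a description. The genes were chosen by their change at 1 h, so their counts at 1 h follow from that choice. The shares of all genes at 0.5, 2 and 4 h were not counted.

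**Figure D5:**
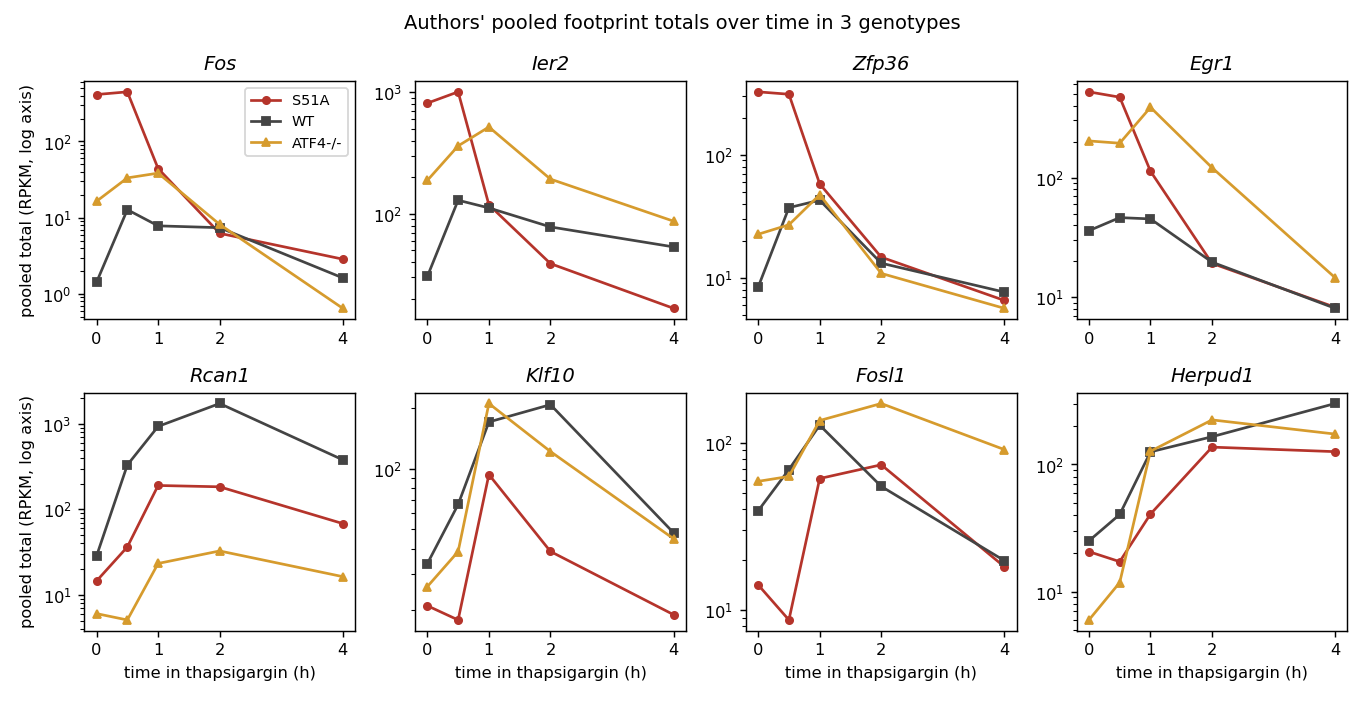
Authors' pooled footprint totals (RPKM, log axis) of 8 genes at 0, 0.5, 1, 2 and 4 h in 1 µM thapsigargin, for S51A (red circles), WT (grey squares) and cells labelled ATF4-/- (yellow triangles); there is 1 pooled value per point and no error. In the upper row the S51A total is highest at 0 or 0.5 h and drops by 1 h, and in the lower row it is higher at 1 h than at 0 h in all 3 genotypes.

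In the pooled mRNA columns of S51A cells, genes with both totals above 0 were compared between 1 h and untreated. Of these, 10 of 12 falling genes were lower at 1 h in mRNA and 10 of 16 rising genes were higher. The rest of the 19 falling and 21 rising genes had an mRNA total at 0 and were left out. The share of all genes that moved each way in mRNA was not counted, so these counts are a description. Fos mRNA was 108 RPKM at 1 h and 324 RPKM untreated, and Rcan1 mRNA was 41.8 RPKM at 1 h and 9.73 RPKM untreated. Klf10 mRNA was 42.2 RPKM at 1 h and 10.04 RPKM untreated. Zfp36 mRNA, at 10.1 RPKM at 1 h and 10.9 RPKM untreated, did not follow its footprints, and Fosl2 and Sgk1 mRNA were lower at 1 h (49.3 and 21.3 RPKM) than untreated (102 and 46.2 RPKM). These libraries are shallow, 11.03% of the 7120 genes being listed at 0 in mRNA at 1 of the 2 times, and no test was made.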

How the data were processed

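Ribosome footprints came from 60 libraries of a 120-sample series in 3 genotypes. The submitters' processing notes name cutadapt 1.6 and Bowtie 1.1.1. Genome build and settings: not given in the sources used here. The authors deposited 1 total per gene and condition, read from the values as RPKM, the sum of an ER and a cytosol level. The authors also deposited the ER part as a ratio of ER level to total. From these 2 columns and GENCODE vM21 coding lengths the whole reads of single libraries were recovered for 17077 of 22417 genes (76.2%), a step tested on simulated data. The recovered libraries a and b carry no replicate number. Of 194305 gene, genotype and time values 192545 were solved in both fractions (99.1%), and 0.172% came out with the lengths exchanged. The recovery was set to a minimum of 4 reads in a WT library and 1 read in an S51A library, and took less as 0. This minimum is not named in the headers of the deposited columns, which hold pooled values.

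The change was tested with limma 3.58.1 in R 4.3.3 (moderated test with a mean-variance trend, empirical Bayes) on log2(RPKM + 1), which understates changes of low genes. All 60 footprint libraries shared 1 estimate of spread, with a coefficient per genotype, fraction and time, and genes needed 1 RPKM in 10 libraries. Fractions were averaged, and p-values were adjusted over all genes by Benjamini-Hochberg at 0.05. Standard errors leave out error that both fractions of a culture share, because libraries could not be paired across fractions. The labels do not say that libraries came from separate cultures. A p-value here therefore reflects only how far the 60 libraries spread within their groups, which may be technical. It does not measure the spread of the compared libraries alone. Shallow WT libraries were given the same spread as deep S51A ones: for Atf4 the SE was 0.2963 in both genotypes. The part of this in the WT calls and in the genotype differences was not tested. Weighting fractions by a gene's share was added after the data were seen.

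The genes of the comparison and the lists were chosen with earlier results of these data known. Genes were named by rule: Eif2s1, Atf4, Ddit3 and Ppp1r15a, up to 15 of the largest called rises and falls, up to 4 of the largest changes in each list, and up to 6 in each direction of the largest called genotype differences and pooled changes. Some genes that the counts include are not reported here by name. Promoter windows are from RefSeq (GRCm38.p6) and gene positions from GENCODE (GRCm38). Alternatives covered pseudocount, filter, scaling, libraries in the fit, a precision-weighted fit to reads, single fractions and leaving out each library.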

Additional observations from a re-analysis of the deposited data

Results flagged for a closer look

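The groups hold 2 libraries each, so no library was tested as standing apart. Named genes whose change at 1 h passed the test of the difference between genotypes (limma, adjusted p under 0.05) are given here as log2 change in S51A minus log2 change in WT.

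Among genes that fell in S51A cells the difference was -4.90 for Fos, -4.54 for Ier2, -4.53 for Zfp36, -3.02 for Junb, -2.61 for Egr1, -2.38 for Klf2, -2.32 for 2610008E11Rik, -2.23 for Dusp1, -2.12 for Edn1, -1.64 for Bmp4, -1.61 for Rnd3, -1.51 for Egr2, -1.50 for Irs1, -1.42 for Socs3, -1.35 for Cish, -1.28 for Nuak2, -1.27 for Snai2 and -1.27 for Zfp503. All of these falls were more negative in S51A than in WT. Cish and Egr2 were at 0 in 3 of the 4 recovered WT libraries of 1 h and Edn1 in 2. Without the 3 WT libraries under 500000 reads the difference shrank to -1.16 for Socs3 and -0.49 for Zfp503. That check leaves 1 WT library of 1 h per fraction. With weighted fractions only Socs3 of these genes did not pass (-1.42, adjusted p = 0.0659).

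Among genes that rose in S51A cells the difference was -1.55 for Herpud1 and -1.13 for Csrnp1, and positive at 1.77 for Dusp4, 1.03 for Serpinb2, 0.98 for Cttnbp2nl, 0.89 for Eva1a and 0.78 for Stk38l. Eva1a was at 0 in all 4 recovered WT libraries of 1 h, Dusp4 and Serpinb2 in 2. Without the 3 WT libraries under 500000 reads the difference shrank to 0.50 for Serpinb2 and 0.63 for Cttnbp2nl. That check leaves 1 WT library of 1 h per fraction.

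Of genes that did not pass the test within S51A cells, the difference was -3.88 for Ddit3, -3.84 for Ppp1r15a, -3.52 for Ptx3 and -3.03 for Atf4. Ptx3 (pentraxin 3) did not pass with weighted fractions (-2.44, adjusted p = 0.145). On the positive side were Dclk1 (3.70), Eif4ebp2 (3.38), 4933415F23Rik (3.14), 1500009L16Rik (2.88), Homer1 (2.67) and Iigp1 (2.62). Each was at 0 in 2 or 3 of the 4 recovered WT libraries of 1 h.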

How the results depend on the processing

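The 40 genes that changed in S51A cells became 24 with a pseudocount of 0.1, 64 with a pseudocount of 5, 83 with no filter on low values, 11 with the 8 compared libraries alone, 140 with limma voom on recovered reads, 14 in cytosol alone and 11 in ER alone, and 20 to 47 when 1 library was left out. Of the 40 genes, 23, 36, 40, 10 and 35 were shared with the first 5 of these settings. With scaling by trimmed means the count was 52, split 33 higher and 19 lower against 21 and 19. Fos, Ier2, Zfp36, Egr1, Klf10 and Rcan1 passed in every alternative that could be fitted, and each of the other 34 lost its call in 1 to 13 of them, without a change of direction. The 1110 genotype differences became 625 of 2753 where each compared library was predicted to hold 20 reads of the gene or more, 1727 without the 3 WT libraries under 500000 reads, and 718 to 1665 when 1 library was left out. Genes past 2-fold in the pooled totals numbered 126 and 61 with a pseudocount of 0.1 and 5, and 19 of 2674 with both totals at 50 or more, against 105. The count for moves between fractions was 0 in every setting run. Small changes turned round for Hspa5 (-0.096 in cytosol alone, -0.30 without untreated cytosol library a, range -0.30 to 0.65 over left-out libraries), Atf4 (-0.019 in ER alone, -0.16 without untreated ER library b, -0.03 without 1 h ER library b, range -0.16 to 0.52) and Ppp1r15a (-0.054 in ER alone, -0.0028 without untreated cytosol library a, range -0.0028 to 0.29). The cause of these differences was not tested. No paired analysis was possible because the recovered libraries carry no replicate number. Depth limits WT more than S51A, since at 1 h the shallowest S51A library held 8933313 reads and the shallowest WT library 370449.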

Other observations

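Genes of housekeeping programmes moved little in S51A cells after 1 h, and no member of these lists passed the test (limma), where 0.389% of all genes tested did. The median log2 change was 0.034 over 73 cytosolic ribosomal protein genes. Of these 50 were above 0, where 35.0% of all genes tested were. The median was -0.029 over 40 genes of oxidative phosphorylation. It was -0.09 over 21 genes of mitosis, -0.07 over 20 genes of the G1 to S step, 0.019 over 27 proteasome genes and -0.04 over 25 cholesterol genes, beside -0.07 over all genes tested. In WT cells 12 of 72 ribosomal protein genes fell and 2 rose, where 16.6% and 12.4% of all genes tested did, and the change in S51A minus that in WT was called higher for 5 of 71, where 4.85% of all genes tested were.

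Some growth regulators had uneven or uncalled changes. Inhba, a subunit of activins, had 87.3 and 41.4 RPKM in the ER fraction at 1 h, against 24.7 and 19.8 RPKM untreated, and did not pass (log2 change 1.23, adjusted p = 0.212). Ccnd1 (cyclin D1) had 5.31 and 12.98 RPKM in cytosol at 1 h, against 16.8 and 19.8 RPKM untreated (log2 change -1.03, adjusted p = 0.213). In both genes the libraries of 1 h and 0 h did not overlap within these fractions. Azin1, which stabilises ornithine decarboxylase by binding antizyme, had a log2 change of 0.69 (adjusted p = 0.304). Serpinb2, at 2.62 RPKM pooled at 1 h and 0.195 RPKM untreated, reached 16.7 RPKM at 2 h and 19.3 RPKM at 4 h in S51A cells.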
